A study of Arabidopsis thaliana with 8 samples.

Results

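The effect of the rh10-1 mutation at 26°C was described in shoot apices of Arabidopsis thaliana, in plants with a functional AS2 gene and in plants that lack it. Members were chosen by label: the 4 arrays of plants grown at 26°C, out of 8 in the series, were set in 2 pairs that differ by rh10-1 and share no array. The first pair was rh10-1 against Col-0, the wild type, and the second was the as2-1 rh10-1 double mutant against the as2-1 single mutant. All plants were of the Col-0 cultivar and were raised on soil under a cycle of 16 h light and 8 h dark until day 15, and each genotype had 1 array. The as2-1 line had been outcrossed to Col-0. The rh10-1 allele is recessive and temperature-sensitive, replaces 1 threonine of the protein with isoleucine, and was recovered from mutagenized as2-1 seed, so other changes of that lineage that both rh10-1 lines may carry cannot be told apart from rh10-1 here.

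RH10 belongs to the DEAD-box RNA helicases, enzymes that remodel RNA and protein complexes, and it lies in the nucleolus, where ribosomal RNA is transcribed, cut from its precursors and assembled into ribosomal subunits. Its human counterpart is DDX47. AS2 acts with AS1 as a repressor of genes that mark the lower (abaxial) side of the leaf, and plants that carry both as2-1 and rh10-1 form filamentous leaves at 26°C. The comparison asks which transcripts differ with rh10-1 whether or not AS2 is present.

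The values were linear signals, already scaled between arrays (trimmed means of 198.1 to 198.4). Spearman correlations between the 4 arrays at 26°C, over all 22746 probe sets, ranged from 0.937 to 0.962, lowest for Col-0 with as2-1 rh10-1. Of 13074 genes with a named probe set, 8041 passed the filter, which asked for a signal above the array's 40th percentile (39.1 to 44.5) on at least 1 of the 4 arrays. A gene that passed only through the arrays where it is high had to differ, and counts below are of genes that passed. Ratios are log2 ratios, in which 1 stands for 2-fold, and the first value given for a gene is always rh10-1 over Col-0 and the second as2-1 rh10-1 over as2-1. The tissue label could be checked with few markers. CLV3, a peptide of the shoot meristem, was listed between 0.9 and 11.8 and did not pass, the organ boundary gene LAS lay between 21.5 and 53.1, both root hair expansins measured (EXPA7 and EXPA18) were at or below 38.2 and did not pass, and 0 of 9 vascular and 0 of 3 flower organ markers had a named probe set. In such whole apices, fewer cells of a type and less RNA per cell cannot be told apart.

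The RH10 transcript (AT5G60990) had signals of 348 in Col-0 against 394 in rh10-1, and 293 in as2-1 against 261 in the double mutant. The rh10-1 arrays did not stand apart from the other 2, since the highest and the lowest signal were both from rh10-1 plants, and the log2 ratios were 0.18 and -0.17 (log2 change 0.01, SE 0.2, limma adjusted p = 0.992). As the allele changes 1 residue of the protein, its transcript level does not check the labels.

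With rh10-1 in the Col-0 background, 303 genes (3.77% of 8041) were 2-fold or more above the control and 312 (3.88%) as far below it. With rh10-1 in the as2-1 background, 491 (6.11%) were higher and 472 (5.87%) lower. In both pairs together, 136 genes (1.69%) were higher and 111 (1.38%) were lower, while 48 were past 2-fold in opposite directions. The 136 genes made up 44.9% of those higher in the Col-0 background and 27.7% of those higher in the as2-1 background, and the 111 genes made up 35.6% and 23.5% of the lists of lower genes. Both rh10-1 arrays lay above both others on 131 of the 136 (20.7% over all genes). They lay below both others on 108 of the 111 (21.6% over all genes). The choice of genes by 2-fold ratios on the same arrays nearly fixes this, so that nothing is read from these counts. The same holds where arrays are said below not to overlap for a gene past 2-fold in both pairs.

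Because the pairs share no array, the genes picked in one pair could be read in the other. Of the 303 genes higher in the Col-0 background, 246 (81.2%) also had a ratio above 0 in the as2-1 background, with a median log2 ratio of 0.86, where 48.8% of all genes lay above 0. Of the 312 lower genes, 225 (72.1%) lay below 0 in the as2-1 background, with a median of -0.66, beside 51.1% of all genes. Read the other way, 353 of the 491 genes higher in the as2-1 background (71.9%) and 371 of the 472 lower ones (78.6%) had the same sign in the Col-0 background, with medians of 0.51 and -0.54. Across the 8041 genes the log2 ratios of the pairs had a Pearson correlation of 0.387 and a Spearman correlation of 0.344, and the points share the probe set and the rh10-1 lineage but no array. Genes are not independent replicates, and these shares are a description.

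**Figure D1:**
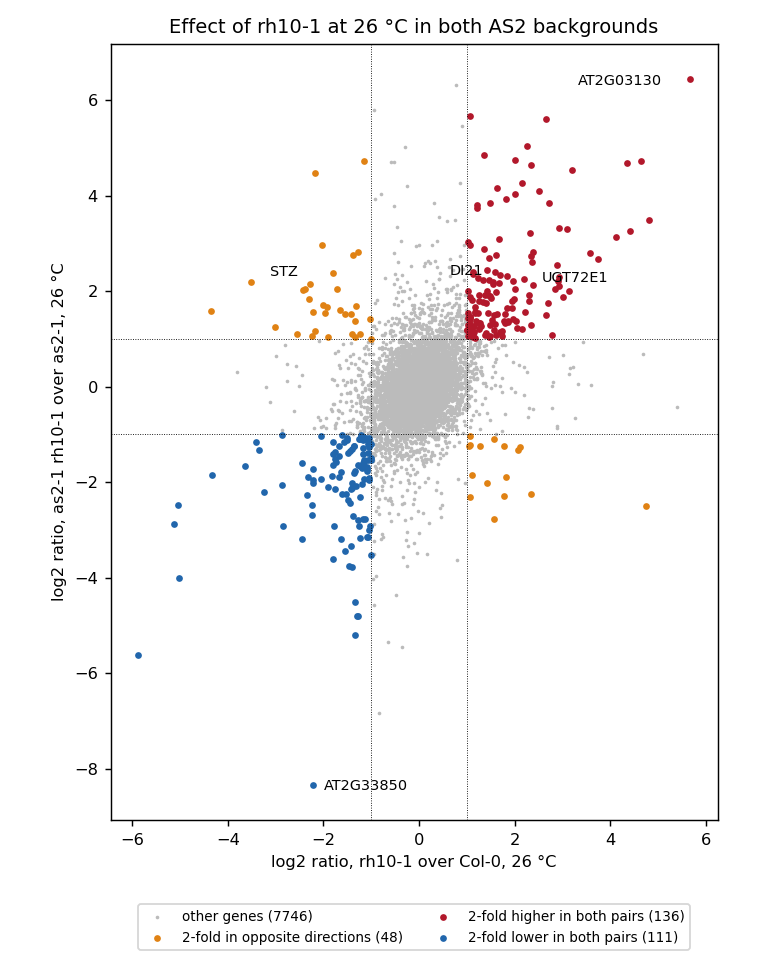
Each point is 1 of 8041 genes, with the log2 ratio of rh10-1 over Col-0 on the x axis and of as2-1 rh10-1 over as2-1 on the y axis, and dotted lines mark 2-fold. The 136 genes higher and the 111 genes lower in both pairs outnumber the 48 past 2-fold in opposite directions.

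The ratios were wider in the as2-1 background over all genes, and those of the shared genes were too. The 136 higher genes had median log2 ratios of 1.59 in the Col-0 and 1.87 in the as2-1 background, and 82 of them had the larger ratio in the latter. For the 111 lower genes the medians were -1.41 and -1.85, with 68 larger in size in the as2-1 background. Over all genes the ratio was larger in size in the as2-1 background for 56.2%, and the SD was 0.629 in the Col-0 and 0.795 in the as2-1 background. At least 4-fold in both pairs were 32 higher and 13 lower genes. Just inside the 2-fold limit were Hsp70-2 (1.0014 and 1.182) and ATL8 (1.0019 and 1.1763), and just outside it LOV1 (1.217 and 0.9937) and the mitotic kinase gene AUR1 (0.9925 and 1.6113). On the lower side psaA (-1.0019 and -1.5313) and AT3G49930 (-1.2081 and -1.0039) were the last inside, and AT5G49640 (-1.5148 and -0.9971) and AT2G24440 (-1.1661 and -0.9957) the first outside.

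A limma fit with terms for as2-1 and rh10-1 was made on the 4 arrays. With 1 residual degree of freedom, its error is the departure from equal ratios in both pairs, moderated over all genes, so a p-value here measures how alike the pairs were and no spread between plants of a genotype. At an adjusted p under 0.05, 26 genes rose (0.323% of 8041) and 15 fell (0.187%). All 41 were among the genes past 2-fold in both pairs, and their smallest change was 1.23 on the log2 scale. At an unadjusted p under 0.05 were 1213 genes. The calls rested on the trend of the error with intensity: without it, limma called 0 genes, with 1021 at an unadjusted p under 0.05 and a smallest adjusted p of 0.0961. With the filter set at the median signal in place of the 40th percentile, limma also called 0 genes, with 1030 at an unadjusted p under 0.05.

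Among genes above the median signal on both rh10-1 arrays (67 of the 136), the 12 with the largest smaller ratio are described first. In 11 of the 12 the reference table gives an AGI code and no name, and nothing is said here of what they encode. AT2G03130 had signals of 5.9 in Col-0 against 301 in rh10-1, and 1.8 in as2-1 against 155 in the double mutant. It was thus near background without rh10-1 and well above it in both rh10-1 lines, with log2 ratios of 5.67 and 6.43 (log2 change 6.05, SE 0.68, limma adjusted p = 0.0238). Where signals under each array's 20th percentile (8.9 to 11.5) were raised to that percentile, its mean log2 ratio was 4.42 in place of 6.05. AT2G18720 had the same pattern, with signals of 5 in Col-0 against 103 in rh10-1, and 4.6 in as2-1 against 117 in the double mutant, and missed the limma threshold (adjusted p = 0.074). Its ratios of 4.36 and 4.67 rest on low signals that lay under the 20th percentile in both lines without rh10-1, and the mean of both was 3.44 with the floor in place of 4.52.

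AT5G11410 had signals of 6.7 in Col-0 against 189 in rh10-1, and 21 in as2-1 against 236 in the double mutant. Both rh10-1 lines were alike and several-fold above the others (log2 ratios 4.82 and 3.49, log2 change 4.16, SE 0.45, limma adjusted p = 0.0233). AT3G15720 had 44.9 in Col-0 against 255 in rh10-1, and 35.6 in as2-1 against 610.5 in the double mutant, so that the double mutant was the highest. Its ratios were 2.51 and 4.1 (log2 change 3.3, SE 0.37, limma adjusted p = 0.0238). AT2G40200 differed most between the backgrounds among these 12, with signals of 19.2 in Col-0 against 91.9 in rh10-1, and 13.4 in as2-1 against 440.1 in the double mutant, log2 ratios of 2.26 and 5.04 and no call (limma adjusted p = 0.0739). AT1G24095 (signals of 40.1 in Col-0 against 262 in rh10-1, and 14 in as2-1 against 202 in the double mutant) and AT2G18190 (18.1 in Col-0 against 216 in rh10-1, and 23.8 in as2-1 against 164 in the double mutant) rose with log2 changes of 3.28 and 3.18 (limma adjusted p = 0.0233 for each). The arrays of both groups were apart for these 2 genes, which the ranking by ratio on the same arrays nearly fixes. The remaining 5, AT5G60250, AT1G17960, AT3G45730, UGT72E1 and AT1G19530, had log2 ratios between 2.1 and 3.22 and were all called by limma. Of the 12, AT3G15720, AT3G45730, UGT72E1 and AT1G19530 also passed the filter on an array without rh10-1. The others passed it only through the rh10-1 arrays and so had to differ, and their p-values are no support for a difference.

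**Figure D2:**
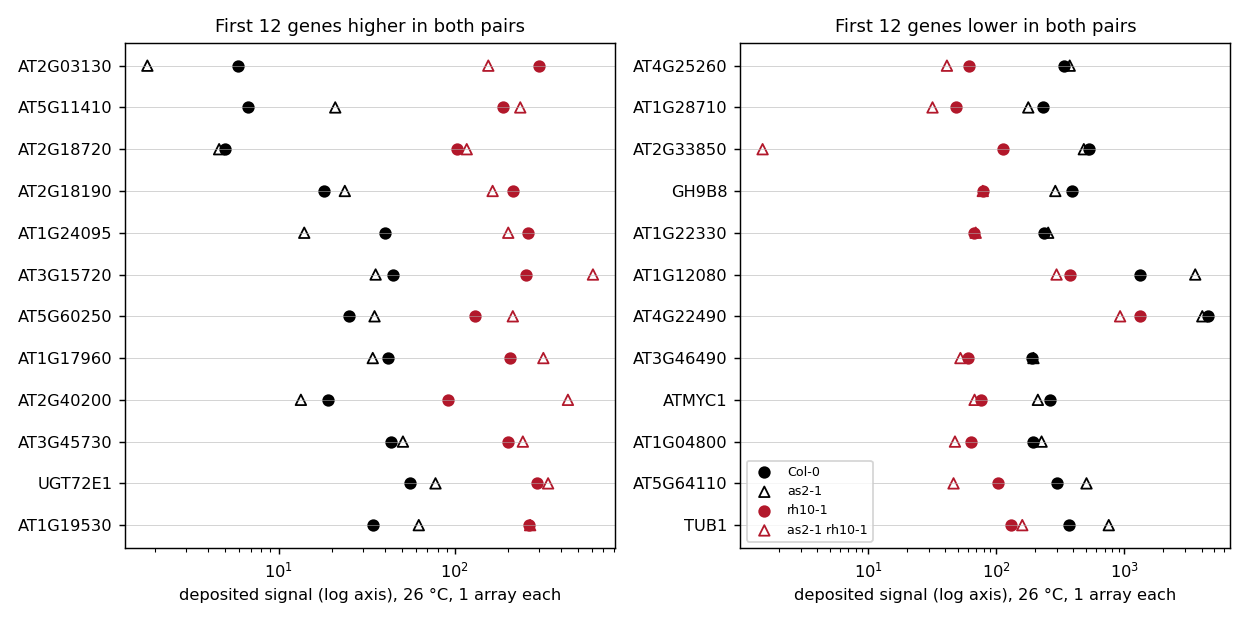
Deposited signals at 26°C on a log axis, 1 array per genotype, for the 12 genes ranked first among those higher (left) and lower (right) in both pairs. Filled circles are plants with AS2 and open triangles as2-1 plants, black without and red with rh10-1. In each row the red and black symbols stand apart, as in AT4G25260 (61.8 and 41.2 with rh10-1, 338 and 374 without). The choice of these genes by ratios on the same arrays nearly fixes this.

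Of the 111 lower genes, 59 lay above the median signal on both arrays without rh10-1, and again 12 are described, 9 of them known here by AGI code alone. AT4G25260 had signals of 338 in Col-0 against 61.8 in rh10-1, and 374 in as2-1 against 41.2 in the double mutant. Both rh10-1 arrays were far below the others, with log2 ratios of -2.45 and -3.18 (log2 change -2.82, SE 0.26, limma adjusted p = 0.0233). AT4G22490 had 4509 in Col-0 against 1332 in rh10-1, and 4058 in as2-1 against 926 in the double mutant. It fell by 1.95 on the log2 scale (SE 0.18, limma adjusted p = 0.0233). AT1G12080 had 1318 in Col-0 against 377 in rh10-1, and 3574 in as2-1 against 296 in the double mutant, so the as2-1 array was the highest and the as2-1 rh10-1 array the lowest. Its log2 ratios were -1.8 and -3.6 (log2 change -2.7, SE 0.38, limma adjusted p = 0.0429). AT1G28710 had 229.9 in Col-0 against 48.8 in rh10-1, and 178 in as2-1 against 31.8 in the double mutant, with both groups well apart (log2 change -2.36, SE 0.26, limma adjusted p = 0.0233).

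AT2G33850 had signals of 526 in Col-0 against 113 in rh10-1, and 482 in as2-1 against 1.5 in the double mutant. The double mutant was under the 20th percentile and the rh10-1 single mutant was not, so the size of the second ratio is not given, and limma did not call the gene (adjusted p = 0.117). Its mean log2 ratio was -5.28, and -3.89 with signals raised to the 20th percentile. AT5G64110 had 299 in Col-0 against 103 in rh10-1, and 506 in as2-1 against 46.4 in the double mutant and was not called either (limma adjusted p = 0.0685). In both genes the lowest array was the double mutant. AT1G22330 (ratios -1.82 and -1.88), AT3G46490 (-1.68 and -1.89) and AT1G04800 (-1.61 and -2.25) fell by limma, with both rh10-1 arrays below both others. The 3 named genes of the 12 were GH9B8, an endoglucanase of glycosyl hydrolase family 9 that acts on cell wall glucans, the basic helix-loop-helix gene ATMYC1 and the beta-tubulin gene TUB1, and all of them fell.

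Gene names were available for 19 of the 136 higher and 23 of the 111 lower genes. All 42 are described by role, a grouping made after their values were seen. By limma 3 of the higher genes (DI21, UGT72E1 and UGT87A2) and 4 of the lower ones (GH9B8, ATMYC1, TUB1 and GI) were called, and for the others the ratios are given with no call.

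The UDP-glycosyltransferases, which join sugars to small molecules such as phenolics and hormones, held 4 of the 19. UGT72E1, which glycosylates phenolic precursors of lignin, had signals of 55.8 in Col-0 against 292 in rh10-1, and 77.9 in as2-1 against 339.6 in the double mutant. Both rh10-1 arrays lay above both others, with log2 ratios of 2.39 and 2.12 (log2 change 2.26, SE 0.22, limma adjusted p = 0.0233). UGT87A2 had 89.9 in Col-0 against 235 in rh10-1, and 67.4 in as2-1 against 256 in the double mutant, again with no overlap (ratios 1.39 and 1.92, log2 change 1.66, SE 0.24, limma adjusted p = 0.0458). UGT76E2 (8.6 in Col-0 against 64.5 in rh10-1, and 7.9 in as2-1 against 36.5 in the double mutant) and UGT72B3 (21.9 in Col-0 against 60.9 in rh10-1, and 53.8 in as2-1 against 132 in the double mutant) were not called (limma adjusted p = 0.266 and 0.141). Among all 23 UGT genes that passed the filter, 4 were at least 2-fold higher in both pairs and 0 lower, beside 1.69% and 1.38% of all genes. Among these 4, UGT76E2 passed the filter only through the rh10-1 single mutant array and so had to differ. Of the 23, 10 had both ratios above 0 and 5 both below it, and over all genes these shares were 30.9% and 30.8%. The medians of the 23 were 0.03 and 0.19, beside 0.01 and -0.01 over all genes.

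Other higher genes belong to detoxification, defence and stress. AER, an alkenal reductase that removes reactive carbonyls, had 35.3 in Col-0 against 180.1 in rh10-1, and 76.8 in as2-1 against 189 in the double mutant. Its arrays did not overlap, and the ratios were 2.35 and 1.3 (limma adjusted p = 0.074). DI21, named for its induction by drought, had 1329 in Col-0 against 3882 in rh10-1, and 1321 in as2-1 against 5894 in the double mutant. It rose with ratios of 1.55 and 2.16 (log2 change 1.85, SE 0.2, limma adjusted p = 0.0233). The defensin gene PDF1.4 had 20 in Col-0 against 129 in rh10-1, and 42.2 in as2-1 against 141 in the double mutant and ratios of 2.69 and 1.74 (limma adjusted p = 0.0652). AOP3, a dioxygenase gene of glucosinolate side chain modification, was at most 47.1 on any array, and its ratios of 3.75 and 2.67 rest on signals under the 20th percentile on 3 of the 4 arrays. Hsp70-2, a cytosolic chaperone, was close to the limit in both pairs (212 in Col-0 against 424 in rh10-1, and 145 in as2-1 against 329 in the double mutant).

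Enzymes of proteins, walls and metabolites made up most of the rest. The subtilisin-like protease genes ATSBT5.2 (ratios 1.34 and 1.77) and SBT3.12 (1.12 and 1.11), the beta-glucosidase gene BGLU46 (1.26 and 1.92), PCME, an isoprenylcysteine methylesterase (1.48 and 1.06), OASA2 of the O-acetylserine (thiol) lyases (1.18 and 1.55) and TBL36 of the trichome birefringence-like family (1.61 and 1.09) lay between 1.06 and 1.92 in both pairs. In BGLU46 the signals were 32.6 in Col-0 against 78.1 in rh10-1, and 58.6 in as2-1 against 222 in the double mutant, and in TBL36 69.5 in Col-0 against 213 in rh10-1, and 153 in as2-1 against 324 in the double mutant. The as2-1 rh10-1 array was the highest in both genes, and neither overlapped between the groups. The kinase gene WNK7 (1.06 and 1.31) and ATL8, a RING-type ubiquitin ligase gene (1.0 and 1.18), were at the low end. YUC4, a flavin monooxygenase of auxin synthesis, had 2.9 in Col-0 against 12 in rh10-1, and 23.1 in as2-1 against 53.9 in the double mutant, so that the as2-1 array exceeded the rh10-1 array and the groups overlapped. SWEET6, of the sugar transporter family, did not exceed 45.8.

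**Figure D3:**
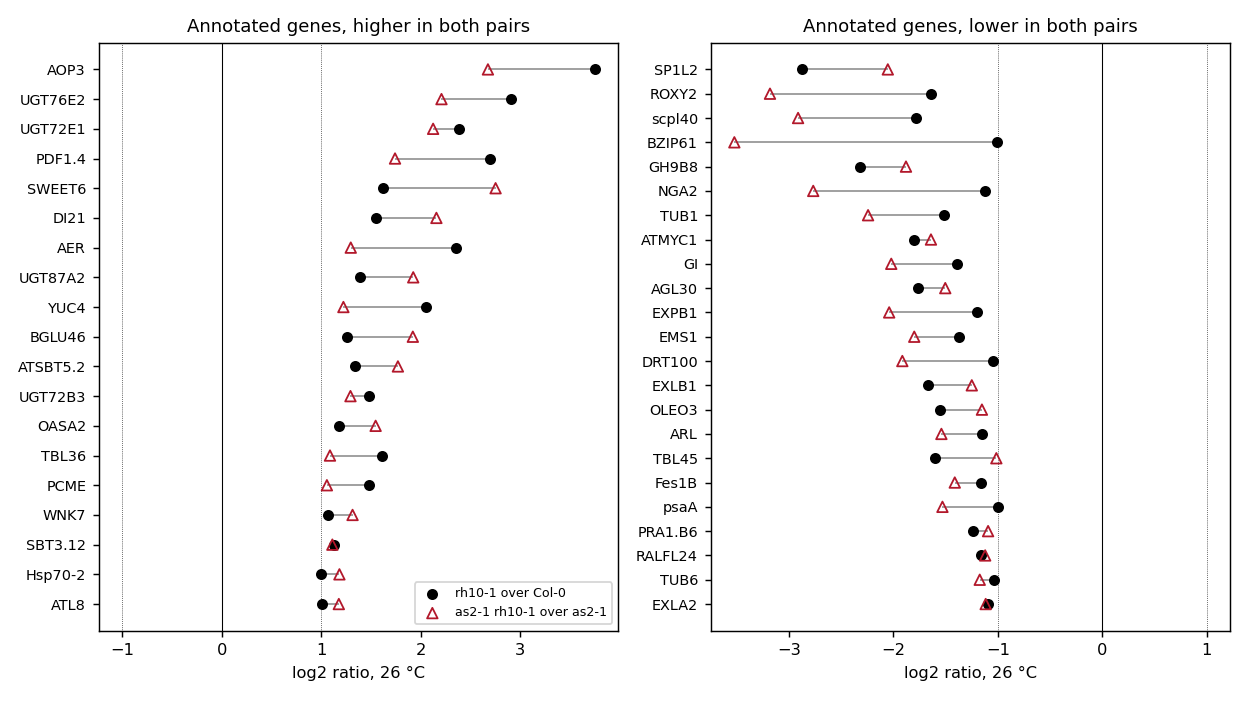
Log2 ratios at 26°C of the 42 named genes past 2-fold in both pairs, 19 higher (left) and 23 lower (right), with filled circles for rh10-1 over Col-0 and open triangles for as2-1 rh10-1 over as2-1, joined by a line. SBT3.12, RALFL24 and EXLA2 had nearly equal ratios in both backgrounds, and BZIP61 (-1.01 and -3.52) differed most.

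The lower genes with roles in microtubules and the cell wall are given first, an order chosen after the values were seen. TUB1 had signals of 371 in Col-0 against 129.5 in rh10-1, and 755 in as2-1 against 159.6 in the double mutant. Both rh10-1 arrays were below both others, and it fell (log2 change -1.88, SE 0.23, limma adjusted p = 0.0323). TUB6 had 2234 in Col-0 against 1088 in rh10-1, and 2885 in as2-1 against 1279 in the double mutant, with ratios of -1.04 and -1.17 and an adjusted p of 0.0514 by limma, just short of the threshold. SP1L2, related to the microtubule-associated SPIRAL1, had 52.7 in Col-0 against 7.2 in rh10-1, and 46.5 in as2-1 against 11.2 in the double mutant. The rh10-1 signals of SP1L2 were near the 20th percentile (ratios -2.87 and -2.05, limma adjusted p = 0.259).

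GH9B8 had 393 in Col-0 against 78.9 in rh10-1, and 289 in as2-1 against 78.5 in the double mutant, the same level in both rh10-1 lines (log2 change -2.1, SE 0.22, limma adjusted p = 0.0233). Expansins loosen the wall during growth, and EXPB1 had 68.4 in Col-0 against 29.8 in rh10-1, and 144 in as2-1 against 35.1 in the double mutant. The expansin-like gene EXLB1 had 264 in Col-0 against 83.2 in rh10-1, and 192 in as2-1 against 80.6 in the double mutant. EXLA2, also expansin-like, had 155 in Col-0 against 72.8 in rh10-1, and 212 in as2-1 against 97.6 in the double mutant. In all 3 the rh10-1 arrays were below both others, with ratios of -1.2 and -2.04, -1.67 and -1.25 and -1.09 and -1.12 and limma adjusted p-values of 0.118, 0.0635 and 0.089. TBL45, of the same family as TBL36 above, was lower (-1.61 and -1.01), so that its members were past 2-fold in both directions. ARL, an ARGOS-like gene of cell expansion, had 173 in Col-0 against 77.6 in rh10-1, and 216 in as2-1 against 74.4 in the double mutant, with no overlap and ratios of -1.16 and -1.54 (limma adjusted p = 0.074).

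Several lower genes encode regulators. GI (GIGANTEA), a clock-controlled gene of photoperiodic flowering, had 483 in Col-0 against 184 in rh10-1, and 420.4 in as2-1 against 104 in the double mutant. It fell (log2 change -1.71, SE 0.22, limma adjusted p = 0.0411), and the times of day at which the apices were taken are not given in the sources used here. ATMYC1, which acts in epidermal cell fate, had 265 in Col-0 against 75.9 in rh10-1, and 211 in as2-1 against 67.7 in the double mutant (log2 change -1.72, SE 0.22, limma adjusted p = 0.0351). NGA2, a B3-domain gene of lateral organ growth, had 117 in Col-0 against 53.7 in rh10-1, and 112 in as2-1 against 16.4 in the double mutant (ratios -1.12 and -2.77, limma adjusted p = 0.124). The signal of NGA2 in the double mutant was well under that in rh10-1, and the bZIP gene BZIP61 had the same order (321 in Col-0 against 159.9 in rh10-1, and 429 in as2-1 against 37.3 in the double mutant). EMS1, a receptor kinase gene of anther cell fate, had 155 in Col-0 against 59.9 in rh10-1, and 111 in as2-1 against 31.8 in the double mutant. ROXY2 (glutaredoxin) and AGL30 (MADS-box) were low, at most 76 and 52.2 on any array.

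The others were RALFL24 of the RALF peptides (-1.16 and -1.12), Fes1B, related to Hsp70 exchange factors (-1.16 and -1.41), PRA1.B6 (-1.24 and -1.09), DRT100 (-1.04 and -1.92), the oleosin gene OLEO3 (-1.56 and -1.15), the carboxypeptidase-like gene scpl40 (-1.78 and -2.91, with the double mutant under the 20th percentile) and psaA, a plastid gene of photosystem I (-1.0 and -1.53). DRT100 had signals of 948 in Col-0 against 460.1 in rh10-1, and 1421 in as2-1 against 377 in the double mutant. Both rh10-1 arrays of DRT100 were below both others.

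Gene lists written for the tissue and the mutants held 570 entries in 29 lists, 103 of them with a named probe set. The lists were chosen with earlier results of these data known, so they lend no independent support. The study's own interest lay in leaf polarity. YAB5, an abaxial gene, had 62.6 in Col-0 against 68.1 in rh10-1, and 176 in as2-1 against 218 in the double mutant. Both as2-1 arrays were higher than both AS2 arrays, and the rh10-1 ratios were 0.12 and 0.31 (limma adjusted p = 0.71). PHV, a gene of the upper (adaxial) side, had ratios of -0.05 and -0.66 (limma adjusted p = 0.499), and YAB3 had -0.37 and 0.09. AGO7, which acts in the small RNA pathway that limits ARF3, had 65.4 in Col-0 against 76.9 in rh10-1, and 35.1 in as2-1 against 108 in the double mutant. The rh10-1 arrays of AGO7 were above both others, but its ratio was past 2-fold only in the as2-1 background (0.23 and 1.63, limma adjusted p = 0.338). Of these 4 genes 0 were past 2-fold in both pairs, beside 1.69% (higher) and 1.38% (lower) of all genes. The other 20 of the 24 genes in the polarity list, ARF3 among them, had no named probe set in the table used for naming and were not analysed here.

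Genes of the nucleolus and of ribosome synthesis, the pathway of RH10, were measured with 20 members. Of these 0 were past 2-fold in both pairs and 0 were called, 7 had both ratios above 0 and 4 both below, beside 30.9% and 30.8% of all genes, and the medians were 0.17 and -0.04. At 22°C the same 20 genes had medians of 0.82 and 0.44. The nucleolar helicase gene PRH75 had 2979 in Col-0 against 2917 in rh10-1, and 2047 in as2-1 against 1677 in the double mutant at 26°C, IMP4 of the small subunit processome had 599.6 in Col-0 against 591 in rh10-1, and 402 in as2-1 against 423 in the double mutant, and YAO had 269.7 in Col-0 against 273 in rh10-1, and 183 in as2-1 against 152 in the double mutant. In each of these 3 the as2-1 arrays were lower than the AS2 arrays, an order that not all 20 members shared. The ratios with rh10-1 were -0.03 and -0.29 for PRH75, -0.02 and 0.07 for IMP4 and 0.02 and -0.27 for YAO. PRH75, IMP4 and YAO are not the members with the largest ratios. The largest mean ratio in size was that of AT1G77030 (-1.47 and -0.71). Next came AT3G09720 (-0.32 and -0.81), AT5G54910 (-0.33 and -0.55) and AT3G15460 (0.22 and 0.55).

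Of 29 cell division genes listed, 4 were measured. Of these, 3 had both ratios above 0, the related genes AUR1, AUR2 and AUR3, beside 30.9% of all genes. AUR1, an Aurora kinase gene of mitosis, had 87.3 in Col-0 against 174 in rh10-1, and 59.7 in as2-1 against 182 in the double mutant (limma adjusted p = 0.089), and AUR2 had 75.8 in Col-0 against 126 in rh10-1, and 44.6 in as2-1 against 88.1 in the double mutant. The rh10-1 arrays of both genes were above both others, with ratios of 0.99 and 1.61 and 0.73 and 0.98. PRL (MCM7), a gene of the replicative helicase, was below 0 in both pairs (-0.15 and -0.47).

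Of 7 auxin genes 1 was past 2-fold higher (YUC4, described above) and 0 lower, beside 1.69% and 1.38% of all genes. YUC4 passed the filter only through the double mutant array and so had to differ. The medians of the 7 genes were -0.54 and -0.82. YUC2, of auxin synthesis, had ratios of -0.95 and -0.68, the auxin-inducible IAA29 had -0.9 and -1.35, and GH3.3, which conjugates auxin to amino acids, had signals of 96.2 in Col-0 against 50.4 in rh10-1, and 70.7 in as2-1 against 3 in the double mutant, the last of these under the 20th percentile. These 3 were lower in both pairs and YUC4 was higher, and none of the 4 was called by limma (adjusted p = 0.451, 0.374, 0.222 and 0.622).

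All 5 beta-tubulin genes measured, of 9 listed, had ratios below 0 in both pairs, beside 30.8% of all genes. Their medians were -0.38 and -0.61. TUB5 had 1383 in Col-0 against 1117 in rh10-1, and 1551 in as2-1 against 1019 in the double mutant and TUB7 had 912 in Col-0 against 703 in rh10-1, and 859.5 in as2-1 against 632 in the double mutant. The rh10-1 arrays of both genes were below both others by less than 2-fold (ratios -0.31 and -0.61 and -0.38 and -0.44). Beta-tubulin genes are alike in sequence, and the share of cross-hybridization was not tested. Of 7 genes of the wall loosening list, 1 was lower past 2-fold in both pairs (the expansin-like EXLA2), beside 1.38% of all genes. The medians were -0.712 and -0.995. EXPA8 had 503 in Col-0 against 271 in rh10-1, and 759 in as2-1 against 232 in the double mutant and XTH16, a xyloglucan endotransglucosylase/hydrolase gene, had 545 in Col-0 against 333 in rh10-1, and 835 in as2-1 against 302 in the double mutant. Both were lower with rh10-1 in each background (ratios -0.89 and -1.71 and -0.71 and -1.47, limma adjusted p = 0.0755 and 0.1), whereas EXPA4 was not (0.38 and 0.26).

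Smaller lists held single members of interest. AT2G21640, of the list of oxidative and mitochondrial stress, had 86.4 in Col-0 against 337 in rh10-1, and 49.3 in as2-1 against 229.9 in the double mutant. It rose (log2 change 2.09, SE 0.22, limma adjusted p = 0.0233) and was the only one of 3 kept members to pass 2-fold in both pairs. STZ (ZAT10), a stress-induced zinc finger gene, had 123 in Col-0 against 25.4 in rh10-1, and 30 in as2-1 against 134 in the double mutant, so that rh10-1 was the lowest and as2-1 rh10-1 the highest array. The linker histone gene HIS1-3 had 399 in Col-0 against 735 in rh10-1, and 889 in as2-1 against 1991 in the double mutant (ratios 0.88 and 1.16), COR15B of the cold response had -0.5 and -1.28, and the median ratios of 4 cold and abscisic acid genes were -0.48 and 0.34. Of 6 photosynthesis genes 0 passed 2-fold in both pairs, beside 1.69% (higher) and 1.38% (lower) of all genes. Their medians were -0.1 and -0.40. WRKY53 and GRX480 of the salicylate list had ratios of 0.87 and 1.49 and 0.62 and 1.1, and SAG101 had -0.11 and 0.92. The stomatal lineage genes SPCH (71.4 in Col-0 against 27.5 in rh10-1, and 25.1 in as2-1 against 15.8 in the double mutant) and FMA (66.1 in Col-0 against 50.5 in rh10-1, and 42.5 in as2-1 against 23 in the double mutant) were below 0 in both pairs, beside 30.8% of all genes. In both genes the rh10-1 signal exceeded the as2-1 signal, so that the groups overlapped. MUTE, of the same lineage, did not pass the filter and had ratios of 1.42 and -1.52. Of the 3 floral transition genes 0 passed 2-fold in both pairs, beside 1.69% (higher) and 1.38% (lower) of all genes.

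Gene families were also gathered by the start of their symbols, after the values were known, and 25 had at least 6 members. Among 11 expansin and expansin-like genes 3 were lower past 2-fold in both pairs and 0 higher, beside 1.38% and 1.69% of all genes. The 3 were EXPB1, which passed the filter only through the arrays without rh10-1 and so had to differ, and the expansin-like EXLB1 and EXLA2. Of the 11, 6 had both ratios below 0 and 3 both above (30.8% and 30.9% over all genes), and the medians were -0.89 and -0.57. The exceptions were large too, since EXPA20 had ratios of 1.2 and 0.95 and EXLA1 had -1.43 and 0.49. The 12 IQD genes encode calmodulin-binding proteins, some of them on microtubules. Of these 12, 7 had both ratios below 0 and 1 both above, beside 30.8% and 30.9% of all genes. Their medians were -0.56 and -0.74, and 0 were past 2-fold in both pairs. In this family iqd21 had 526 in Col-0 against 273 in rh10-1, and 521 in as2-1 against 71.1 in the double mutant and IQD24 had 157 in Col-0 against 98.2 in rh10-1, and 124 in as2-1 against 42 in the double mutant. Of 6 tetraspanin genes, which encode membrane proteins, 3 had both ratios below 0, beside 30.8% of all genes. These 3 had nearly equal ratios, TET10 -1.15 and -0.92, TET2 -0.93 and -0.94 and TET7 -1.01 and -0.92. Members of a family may share probe sequence, and nothing was tested for the families as such.

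**Figure D4:**
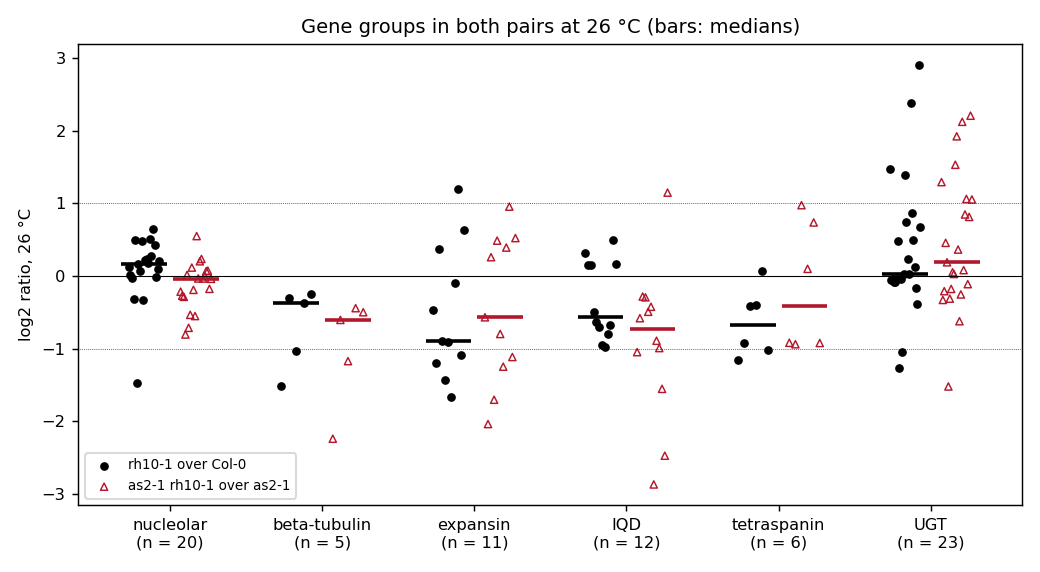
Log2 ratios at 26°C of the members of 6 gene groups, with filled circles for rh10-1 over Col-0, open triangles for as2-1 rh10-1 over as2-1 and bars for medians. The 20 nucleolar genes lay around 0 (medians 0.17 and -0.04). All 5 beta-tubulin genes lay below 0 in both pairs, as did 30.8% of all genes. Of 23 UGT genes, 4 stood above 1 in both, beside 1.69% of all genes. Among these 4, UGT76E2 passed the filter only through the rh10-1 single mutant array and so had to differ.

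The arrays at 22°C entered the choice of probe set for genes with several, and were otherwise not used to choose the genes. The same ratios were read there. Over the 8041 genes, 60 (0.746%) were past 2-fold upward and 40 (0.497%) downward with rh10-1 in both backgrounds at 22°C. Of the 136 genes higher at 26°C, 22 (16.2%) were 2-fold higher in both pairs at 22°C, 51 (37.5%) had both ratios above 0, where 29.3% of all genes did, and 35 had both below 0. Their medians at 22°C were 0.06 and 0.14. Of the 111 lower genes, 3 were 2-fold lower in both pairs at 22°C (2.7%) and 39 (35.1%) had both ratios below 0, where 32.2% of all genes did, with medians of -0.16 and 0.01. Most shared genes at 26°C were thus not past 2-fold in both pairs at 22°C. The filter and the choice used signals and ratios at 26°C alone, so smaller ratios at 22°C follow in part from the choice.

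The 22 higher genes of both temperatures held 1 with a name, PDF1.4. AT1G17960 had 6.3 in Col-0 against 116 in rh10-1, and 1.7 in as2-1 against 100.3 in the double mutant at 22°C, beside 41.6 in Col-0 against 207 in rh10-1, and 34.3 in as2-1 against 319 in the double mutant at 26°C. AT3G45730 had 4.2 in Col-0 against 85.2 in rh10-1, and 2 in as2-1 against 63.4 in the double mutant at 22°C, beside 43.6 in Col-0 against 200.4 in rh10-1, and 50.9 in as2-1 against 244 in the double mutant at 26°C. At both temperatures the rh10-1 arrays of these 2 genes were above both others, and the signals without rh10-1 were lower at 22°C. AT5G60250 was alike at both temperatures, with ratios of 3.07 and 2.97 at 22°C and 2.36 and 2.61 at 26°C. The 3 lower genes were AT1G06420, AT4G29270 and AT5G67090, and AT1G06420 had 99.1 in Col-0 against 35.6 in rh10-1, and 128 in as2-1 against 24.9 in the double mutant at 26°C and 119 in Col-0 against 42.2 in rh10-1, and 107 in as2-1 against 40.2 in the double mutant at 22°C. The rh10-1 arrays of AT1G06420 were below the others at each temperature.

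Other named genes differed from this. UGT72E1 had 90.9 in Col-0 against 44 in rh10-1, and 46.5 in as2-1 against 51.1 in the double mutant at 22°C, ATMYC1 had 333 in Col-0 against 429.7 in rh10-1, and 390.0 in as2-1 against 318 in the double mutant, and GI had 81.7 in Col-0 against 103 in rh10-1, and 63.3 in as2-1 against 109 in the double mutant. None of these 3 was past 2-fold in the same direction in both pairs at 22°C, and the difference of the rh10-1 effect between 26°C and 22°C, from a limma fit over all 8 arrays, was 2.71, -1.76 and -2.27 on the log2 scale (limma adjusted p = 0.0332, 0.0446 and 0.029). For TUB1 that difference was -1.41 (limma adjusted p = 0.08) and for GH9B8 -1.52 (0.0535 by limma), both short of the threshold, and for DI21 it was 1.1 (limma adjusted p = 0.128). TBL36 was 2-fold higher in both pairs at 26°C and had ratios of -0.94 and -1.01 at 22°C, with a difference of 2.33 (limma adjusted p = 0.0174). These genes had been chosen for their ratios at 26°C, so that the differences are not independent of the choice.

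**Figure D5:**
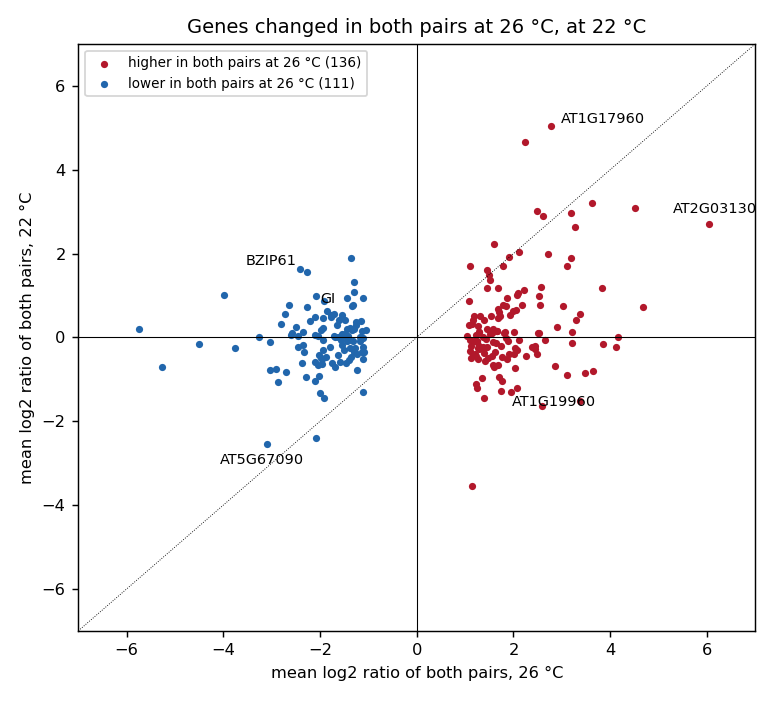
Mean log2 ratio of both pairs at 26°C (x axis) and at 22°C (y axis) for the 136 genes higher (red) and the 111 genes lower (blue) in both pairs at 26°C, with the dotted line where both are equal. Most points lie near 0 on the y axis, with a group of higher genes, AT1G17960 and AT2G03130 among them, above it.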

How the data were processed

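The submitters hybridised RNA from shoot apices to ATH1 GeneChips (3′ IVT Express labelling). The authors computed linear signal intensities for 22746 probe sets with GCOS 1.4.0.036 and scaled them between arrays, to a target not given in the sources used here. All 8 deposited columns were mapped to samples by label. With 1 array per genotype and temperature there is no replicate, and precision is limited by the number of arrays. Detection and change calls were not used here, and the percentile filter stands in their place.

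Signals listed at 0 were set to 0.1 before log2, and no further scaling was applied. Probe sets with exactly 1 gene (13513 before those ending in _s_at or _x_at were left out) were named through GEO's platform annotation and RefSeq's gene table (TAIR10.1), and for a gene with several the one with the highest mean was used. Genes above the 40th percentile on at least 1 of the 4 arrays at 26°C were kept. A gene counted as changed at 2-fold in both pairs. Named in the text are the first 12 in each direction above the array median on the side where they are higher, ranked by the smaller ratio after a floor at the 20th percentile, the 5 largest limma changes in each direction, RH10, genes the study names, up to 4 members of each list with at least 3 kept members, and the 42 named genes past 2-fold in both pairs and family members, chosen after their values were seen. Also named, outside these rules, were PRH75, IMP4, YAO, EXPA4, SPCH and FMA, among others. The members and lists were chosen with earlier results of these data known. limma 3.58.1 (R 4.3.3; eBayes with a trend on intensity, p-values adjusted by Benjamini-Hochberg over all genes kept, threshold 0.05) fitted as2-1 and rh10-1 to the 4 arrays, and to all 8 with separate terms by temperature. Other steps used Python 3.11.15 with numpy 2.4.6, pandas 2.3.3 and matplotlib 3.10.9. The procedure was tested on simulated data. There limma called 59 of 100 genes with a true log2 change of 1, 88 of 100 with a change of 2 and 14 of 7841 with none. The simulated noise was more even between genes than that of the data, so this does not vouch for the calls above. Alternatives were quantile normalization, centring, a floor, other filters, probe set rules and fold limits, no trend, and all 8 arrays. Promoter motifs and a description-based list of cytosolic ribosomal proteins were planned and not run, since the reference used here holds no promoter sequences or such descriptions.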

Additional observations from a re-analysis of the deposited data

Results flagged for a closer look

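The effect of rh10-1 differed between the temperatures for 45 genes by limma over all 8 arrays (adjusted p under 0.05), 24 with the higher and 21 with the lower ratio at 26°C, and 1169 genes had an unadjusted p under 0.05. Without the intensity trend 2 genes were called. Of the 45, out of 8041 genes, 17 were among the 136 genes higher and 14 among the 111 genes lower in both pairs at 26°C. Those genes were chosen by ratios on the same 26°C arrays that enter the difference, so nothing is read from this overlap.

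In 3 genes both pairs were past 2-fold in opposite directions at 26°C and 22°C. AT1G19960 was higher with rh10-1 at 26°C (34.1 in Col-0 against 122 in rh10-1, and 35.5 in as2-1 against 111 in the double mutant, mean log2 ratio 1.74) and lower at 22°C (976 in Col-0 against 360.2 in rh10-1, and 847 in as2-1 against 385 in the double mutant). The bZIP gene BZIP61 was lower at 26°C (mean log2 ratio -2.26) and higher at 22°C (65 in Col-0 against 196 in rh10-1, and 50.7 in as2-1 against 147 in the double mutant). For both genes the difference between temperatures passed limma's threshold. AT4G09950 was higher at 26°C (mean log2 ratio 1.15) and lower at 22°C, where its signals were 21.4 in Col-0 against 1.7 in rh10-1, and 21.4 in as2-1 against 2 in the double mutant, under the 20th percentile with rh10-1.

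Between the backgrounds, 48 genes were past 2-fold in opposite directions at 26°C, 16 higher in the Col-0 and lower in the as2-1 background and 32 the reverse. This difference was not tested, since each genotype had 1 array. The set included STZ (-2.28 and 2.15) and CHX20, a cation exchanger gene (1.83 and -1.89).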

How the results depend on the processing

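The as2-1 term of the limma fit holds the pairing by background. With 1 array per genotype and temperature no array could be left out, and each pair's own value is given instead. The 136 higher and 111 lower genes became 366 and 373 at 1.5-fold, 50 and 30 at 3-fold, 531 and 454 with no filter, and 240 and 224 over all _at probe sets, named or not. With the filter at the median there were 92 and 67. Quantile normalization, centring, the floor, the s and x probe sets and the mean of probe sets gave 123 to 144 higher and 103 to 113 lower genes, and the floor kept 123 and 106 of the same genes.

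The 41 genes called by limma became 0 without the intensity trend and 0 with the filter at the median, 141 with no filter, 87 over all _at probe sets and 200 with all 8 arrays, of which 39 were among the 41. The other alternatives called 39 to 46. Of 81 values of 27 named genes under quantile normalization, centring and the floor, 79 moved by less than the spread of both pairs and 0 changed sign; AT2G03130 and AT2G18720 moved, to 4.42 and 3.44 with the floor. AT2G33850, whose pairs were far apart, went from -5.28 to -3.89 with the floor. All 33 list medians stayed within that spread. Signals near the 20th percentile limit the size of a ratio.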

Other observations

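Transcripts of the plastid genome, which encodes parts of the photosystems and of the plastid ribosome, were read as a further group. Of 65 plastid genes that passed the filter, 62 had a ratio below 0 in the as2-1 background at 26°C (median -0.6). In the Col-0 background 40 did (median -0.06). Over all genes, 51.1% lay below 0 in the as2-1 and 48.7% in the Col-0 background. The difference between the backgrounds was not tested. The 14 plastid ribosomal protein genes had medians of -0.65 (14 below 0) and -0.13 (8 below 0) for the same pairs. At 22°C the medians of the 65 genes were 0.27 in the as2-1 and -0.003 in the Col-0 background. Plastid transcripts mostly lack the poly(A) tail that the labelling primes on, and whether this bears on the values was not tested.

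By position, the 136 higher genes lay on every nuclear chromosome, with 30, 24, 32, 19 and 31 on chromosomes 1 to 5. The genes that passed the filter there numbered 2099, 1136, 1657, 1174 and 1897 in the same order. Among the 250 annotated genes on each side of RH10 on chromosome 5, 122 passed the filter, of which 4 (3.28%) were higher and 2 (1.64%) lower in both pairs, beside 1.69% and 1.38% of all genes. The window was chosen after the values were seen. The 4 higher genes were UGT76E2, AT5G60250, AT5G61520 and AT5G61820, and AT5G60250 was 1 of the 22 genes higher at both temperatures. UGT76E2 and AT5G60250 passed the filter only through arrays with rh10-1 and so had to differ.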
